A study of Solanum tuberosum with 12 samples.

Results

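The transcripts described here were the 200 whose level differed most among the 3 Wild type libraries of a potato tuber skin experiment, out of 16951 that met the same minimum level and 54416 in the deposited files. They were chosen by their measured levels in the Wild type, as follows. Levels were expressed as CPM, the count scaled to a fixed library total of 1000000, and transcripts with a mean of at least 5 CPM in the Wild type were ranked by the standard deviation (SD) of log2(CPM + 0.5) over the 3 Wild type libraries. The transcripts that the study listed as changed by silencing and the 200 most abundant of the remaining Wild type transcripts were left out before the ranking. The Wild type spread therefore chose these transcripts, and it is given only as a description. The question was whether the transcripts that set apart the Wild type libraries also set apart the libraries of the silenced plants.

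RNA came from the periderm of tubers of Solanum tuberosum Group Tuberosum cultivar Désirée, a tetraploid potato, from plants grown in soil. Of the 12 libraries, 3 came from the untransformed Wild type and 3 each from StRIK-RNAi lines 9, 12 and 47, in which a hairpin construct directed against StRIK was introduced by Agrobacterium. Each line descends from a transformation event of its own, so the libraries of a line share that event. The study calls the 3 libraries of each group biological replicates. No source used here says which plants or tubers went into which library, so p-values measure the spread between these libraries.

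The periderm is the protective skin of the tuber. A layer of dividing cells, the phellogen, produces the phellem outwards, whose cells lay down suberin in their walls and then die. The harvested skin holds mainly phellem with some phellogen, so a bulk library averages over cells at different stages. In such a sample fewer cells of a type cannot be told apart from less RNA per cell. RIK is a protein with a KH domain, a fold that binds RNA. It is known from maize as a partner of a protein that keeps knox genes silent in young leaves. None of the 200 transcripts is among those that the study annotated in its tables, and no identifier of theirs was paired with a gene name or a sequence in the sources used here. They are therefore given by identifier and by pattern, and nothing is said of their function.

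Total effective counts per library ranged from 18650236 to 21585122, and between 37399 and 38607 transcripts were above 0. The 200 most abundant transcripts took 26.6% to 29.5% of the counts in a library. StRIK, summed over the 3 isoforms that the hairpin targets, was at 82.5 to 88.3 CPM in the Wild type and at 34.5 to 75.1 CPM in the RNAi libraries, so the groups did not overlap. A lane tag in the names of the deposited tables was 6 for all 3 Wild type libraries and for line 47 replicates 2 and 3, and 7 for the other 7 RNAi libraries, and no source used here says more about it. Transcripts annotated as rRNA intron-encoded homing endonuclease, senescence-associated protein or cytochrome P450 like_TBP were grouped here as ribosomal RNA-like. The study does not make this grouping. They made up 0.0174% to 0.0721% of the counts except in line 47 replicates 2 and 3, which had 0.824% and 0.624%. Of the 36 transcripts annotated in the study's tables that reached the minimum level, 3 matched the words searched for as cell type markers. They were a peroxidase and 2 phenylalanine ammonia-lyases. Words for dehydration, heat or ribosomal RNA-like transcripts were not part of that search. Those 3 are too few to check the cell types of the periderm in these libraries.

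In the Wild type the 200 transcripts separated 1 library from the other 2. Replicate 3 was the library farthest from the remaining pair for 190 of the 200, replicate 1 for 8 and replicate 2 for 2. Replicate 3 held less than the mean of the other pair for 165 transcripts, called low transcripts below, and more for 35, called high transcripts. The median low transcript was at 31.1 CPM in replicate 1, 37.3 CPM in replicate 2 and 5.27 CPM in replicate 3. The median high transcript was at 5.31, 5.18 and 28.0 CPM in the same order. The median difference was 5.47-fold lower in replicate 3 for the low transcripts and 4.70-fold higher for the high transcripts. The median SD on the log2 scale was 1.43, against 0.23 for the 16751 other transcripts that met the minimum. The last transcript inside the choice had an SD of 1.2260 and the first outside had 1.2257, so the limit does not mark a gap.

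The 200 transcripts were not scarce. Their mean level in the Wild type ran from 5.16 to 511 CPM with a median of 21.4 CPM, against 17.0 CPM for the other transcripts at the minimum level. The lowest mean was 98.7 effective counts per Wild type library and the median was 420. Together they made up 0.591% to 1.23% of the counts of a library. Neighbouring identifiers occurred among them, and 75 of the 200 lay in runs of consecutive identifiers of up to 4, while 125 stood alone. All 43 pairs of consecutive identifiers were on the same side of the Wild type difference. Consecutive identifiers can belong to transcripts of 1 gene, and eXpress, the counting program, divides shared reads among isoforms and near-identical copies, so such pairs are not separate observations.

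The largest SD among the low transcripts was that of PGSC0003DMT400016370. It stood at 46.4, 52.0 and 2.04 CPM in Wild type replicates 1, 2 and 3, a 24.1-fold lower level in replicate 3. In line 9 it was at 11.9, 23.2 and 42.7 CPM, in line 12 at 2.07, 22.6 and 27.8 CPM, and in line 47 at 57.0, 19.6 and 20.0 CPM. Line 12 replicate 1 thus fell to the level of Wild type replicate 3, 12.2-fold below its line's other replicates, while line 47 replicate 1 was the highest of the 12 libraries. The second low transcript, PGSC0003DMT400058700, was at 8.13 and 7.80 CPM in Wild type replicates 1 and 2 and had no count in replicate 3. Against a floor of 3 counts in that library, 0.161 CPM, it was at least 49.5-fold lower there. Its RNAi libraries ranged from 0.103 CPM in line 12 replicate 1 to 3.42 CPM in line 47 replicate 3, all below Wild type replicates 1 and 2. Those Wild type replicates alone carried it over the minimum level, so nothing is read from this order.

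Among the high transcripts, PGSC0003DMT400097503 and PGSC0003DMT400093189 had the largest SD. The first was at 22.8, 142.3 and 717 CPM in Wild type replicates 1, 2 and 3, so that replicate 1 was the library farthest from the others. It was at 664, 570.2 and 635 CPM in line 9, at 2688, 377 and 104 CPM in line 12 and at 109.9, 526 and 245 CPM in line 47. Its highest library of the 12 was line 12 replicate 1, 11.2-fold above the rest of that line. The ratio of the first to the second transcript stayed between 1.34 and 1.47 in every library, so the pair gives 1 pattern and not 2.

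**Figure D1:**
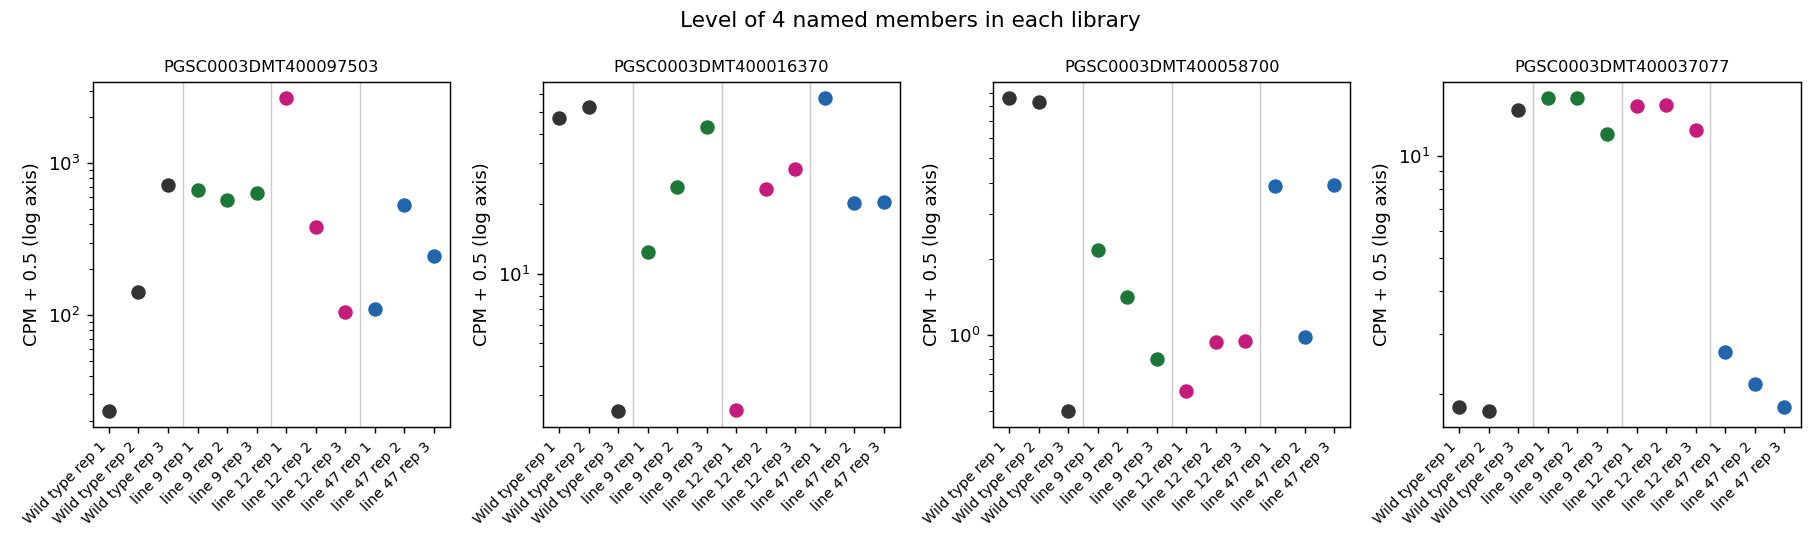
Level of 4 named transcripts in each of the 12 libraries, as CPM + 0.5 on a log axis, with 1 point per library coloured by group. PGSC0003DMT400016370 was at 2.04 CPM in Wild type replicate 3 and 2.07 CPM in line 12 replicate 1, and PGSC0003DMT400037077 was at 1.33 to 2.15 CPM in line 47 against 11.1 to 14.3 CPM in lines 9 and 12.

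To follow the Wild type difference through the RNAi libraries, each library was given a position on a scale where 0% is the mean of Wild type replicates 1 and 2 and 100% is Wild type replicate 3. The position is the mean over the 200 transcripts of the log2 difference from the 0% end, counted positive towards replicate 3. The Wild type levels that chose the transcripts also set their sides and both ends of the scale. A library unrelated to the Wild type difference would therefore tend to lie between the ends and not at 0%. Positions between the ends are descriptions. Line 12 replicate 1 lay at 108.9%, past the far end. Line 12 replicates 2 and 3 lay at 35.8% and 36.9%. Line 47 replicate 1 lay at 4.70%, close to Wild type replicates 1 and 2, which by construction fell around 0% at 1.87% and -1.87%, and its replicates 2 and 3 lay at 44.4% and 31.0%. Line 9 replicates 1, 2 and 3 lay at 56.1%, 51.4% and 29.7%. The 3 libraries of line 12 thus spanned most of the distance between the Wild type libraries, and the 3 lines overlapped on the scale.

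**Figure D2:**
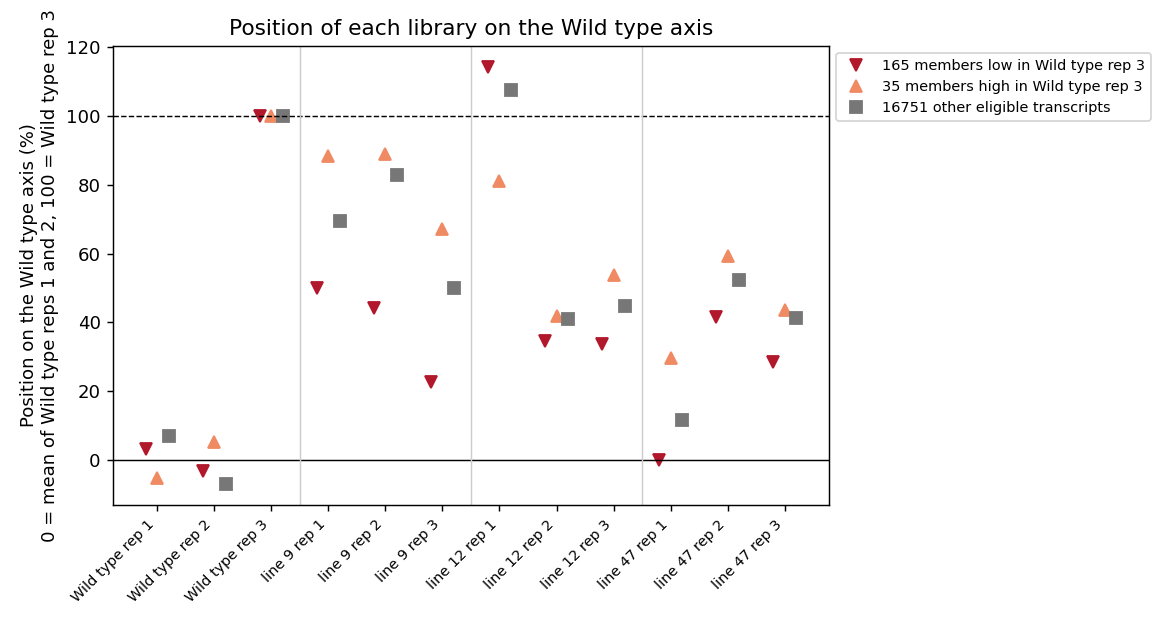
Position of each of the 12 libraries on the Wild type scale in percent, shown apart for the 165 low transcripts, the 35 high transcripts and the 16751 other transcripts at the minimum level. Line 12 replicate 1 lies at 114.3% for the low transcripts and 107.4% for the others, and line 47 replicate 1 at -0.09% and 11.6%.

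Low and high transcripts did not place all libraries alike. For the low transcripts line 12 replicate 1 lay at 114.3%, and the other RNAi libraries lay between -0.09% in line 47 replicate 1 and 49.9% in line 9 replicate 1. For the high transcripts line 9 replicates 1 and 2 were at 88.3% and 88.9%, above line 12 replicate 1 at 81.2%. The lowest of these positions was again that of line 47 replicate 1, at 29.6%. The other 16751 transcripts gave the same lowest and highest RNAi library as the low transcripts. These were line 47 replicate 1 at 11.6% and line 12 replicate 1 at 107.4%, with line 9 replicate 2 next at 82.9%. The 2 ends of the low transcripts were therefore shared by transcripts that the choice left out. The sides of those transcripts were set by the same Wild type libraries.

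The median levels show the same in CPM. The median low transcript was at 4.24 CPM in line 12 replicate 1, below the 5.27 CPM of Wild type replicate 3, and at 19.7 and 19.0 CPM in line 12 replicates 2 and 3. It was at 38 CPM in line 47 replicate 1, the highest median of the 12 libraries, and at 16.9 and 20.3 CPM in replicates 2 and 3 of that line. In line 9 it was at 12.8, 14.7 and 23.8 CPM, so replicate 3 stood above the remaining pair. The median high transcript was at 34.7, 33.2 and 16.3 CPM in line 9, at 22.3, 13.9 and 19.0 CPM in line 12 and at 10.5, 14.9 and 13.5 CPM in line 47. All 9 RNAi medians for the high transcripts were above the 5.31 and 5.18 CPM of Wild type replicates 1 and 2. Those values were used in the choice, so this order is a description.

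**Figure D3:**
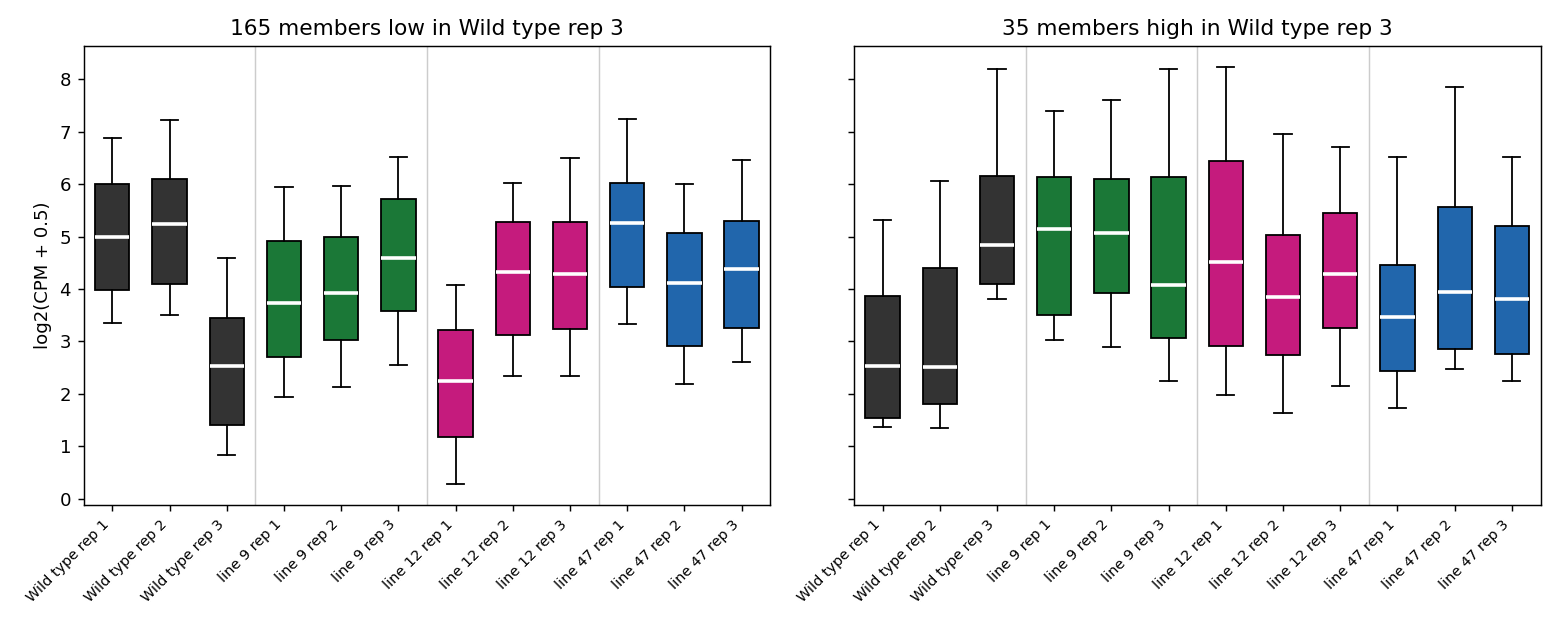
Levels of the 165 low transcripts and the 35 high transcripts in each library as log2(CPM + 0.5), where boxes give the quartiles, white lines the median and whiskers the 10th and 90th percentiles over transcripts. The boxes of Wild type replicate 3 and line 12 replicate 1 lie below the other 10 on the left, with medians of 5.27 and 4.24 CPM.

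Transcript by transcript, 164 of the 165 low transcripts in line 12 replicate 1 were past the halfway point towards Wild type replicate 3. The counts were 47 and 55 in line 12 replicates 2 and 3, 76, 75 and 40 in line 9, and 3, 63 and 11 in line 47. Of the 35 high transcripts, 24 were past halfway in line 12 replicate 1, 26 and 27 in line 9 replicates 1 and 2, and 9 in line 47 replicate 1. The halfway points come from the Wild type levels used in the choice, so the counts past them are descriptions. Among the 9 RNAi libraries alone, line 12 replicate 1 was the lowest for 150 of the 165 low transcripts, against 28.4% of the 8332 other transcripts that were lower in Wild type replicate 3. Line 47 replicate 1 was the highest of the 9 for 97 of the 165, against 28.5% of those others. Over all 12 libraries the lowest was line 12 replicate 1 for 110 low transcripts and Wild type replicate 3 for 46, where the place of the latter follows from the choice.

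Differences within an RNAi line use RNAi levels alone, while the 200 transcripts, their sides and the Wild type differences they are set against come from the libraries used in the choice. In line 12, replicate 1 differed from the mean of replicates 2 and 3 in the direction of Wild type replicate 3 for all 165 low transcripts and for 27 of the 35 high transcripts. That is 96.0% of the 200, against 75.3% of the other transcripts at the minimum level. The median low transcript was 3.99-fold lower in line 12 replicate 1, and the median high transcript was higher by 0.94 on the log2 scale. Across the 200 transcripts the difference within line 12 followed that within the Wild type with r = 0.73, and across the other 16751 with r = 0.67. The choice puts the 200 into separate clumps of low and high transcripts, and within them r was 0.36 each. The transcripts of a library share its RNA, depth and normalization, so these correlations are descriptions.

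Line 47 showed the reverse for its replicate 1. This library moved in the direction of Wild type replicate 3 for 0 of the 165 low and 8 of the 35 high transcripts relative to its line's other replicates. That is 4.0% of the 200, against 27.3% of the others. The correlation across the 200 was r = -0.86, and within the low and the high transcripts it was -0.48 and -0.49. The median low transcript was higher by 0.89 on the log2 scale in replicate 1. Line 47 replicate 2 was on the side of Wild type replicate 3 for 90.5% of the 200, against 65.1% of the others. Its r was 0.63 across the 200, but -0.02 within the low and 0.40 within the high transcripts. This division of line 47 coincided with the lane tag, 7 for replicate 1 and 6 for the remaining pair, and with the ribosomal RNA-like share, 0.0241% in replicate 1 against 0.824% and 0.624%. The part of these in the difference was not tested. The 3 Wild type libraries shared lane tag 6 and the 3 line 12 libraries lane tag 7, so the differences within those groups lay within 1 tag.

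Line 9 was the least clear. Its replicate 3 was on the side of Wild type replicate 3 for 27.5% of the 200, against 37.5% of the others. Its replicates 1 and 2 were on that side for 58.5% and 59.0%, against 51.9% and 60.8% of the others, so replicate 2 was not above the share of the others. Over the 200 r was 0.26, 0.22 and -0.43 for replicates 1, 2 and 3, but within the low transcripts it was 0.34, -0.16 and -0.30 and within the high transcripts -0.09, 0.11 and -0.01. The median low transcript was higher by 0.54 on the log2 scale in line 9 replicate 3 than in the rest of that line.

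**Figure D4:**
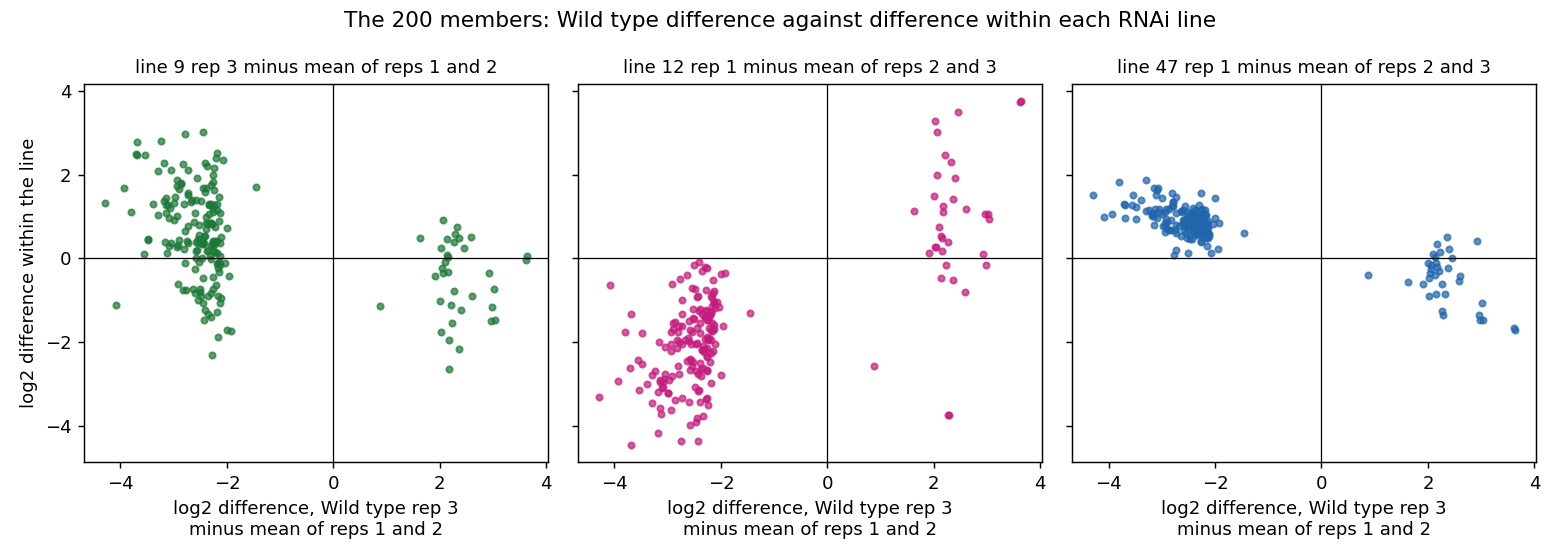
Each point is 1 of the 200 transcripts, with the log2 difference of Wild type replicate 3 from the mean of replicates 1 and 2 on the horizontal axis and the log2 difference of 1 replicate from the mean of the others in its line on the vertical axis. For line 12 replicate 1 all 165 low transcripts lie below 0 on the vertical axis, and for line 47 replicate 1 none of the 165 does.

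The 200 transcripts also varied more within each RNAi line than other transcripts did. The median SD over the 3 libraries was 1.12 in line 12, 0.74 in line 9 and 0.63 in line 47 on the log2 scale, against 0.20, 0.23 and 0.17 for the other transcripts. An SD of at least 1 was reached by 112 of the 200 in line 12, by 57 in line 9 and by 13 in line 47. The shares were 56.0%, 28.5% and 6.50%, against 1.52%, 2.20% and 0.293% of the other transcripts. Without its replicate 1, the median SD of line 12 was 0.20. Without replicate 1 it was 0.47 in line 9 and 0.34 in line 47. Each of these is over the remaining pair of libraries and was not computed for the other transcripts. They do not compare directly with the SDs over 3 libraries.

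**Figure D5:**
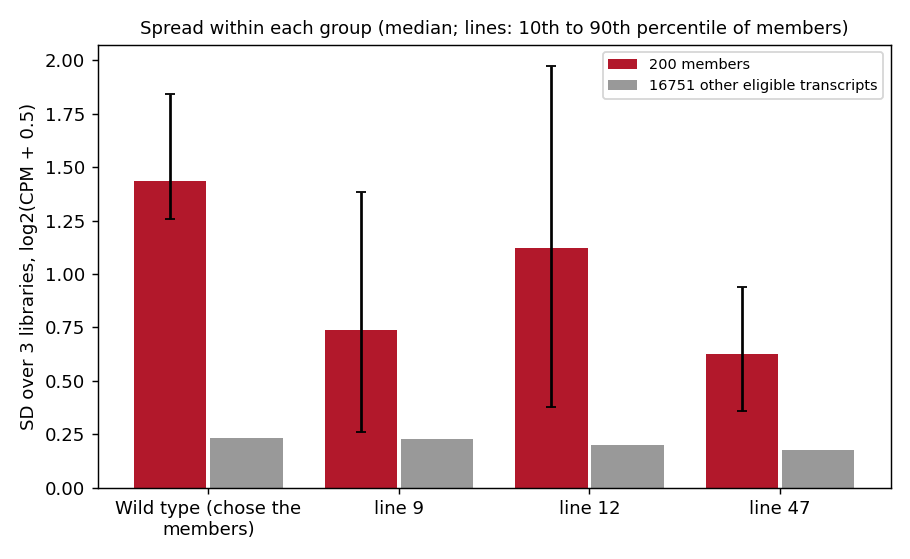
Median SD of log2(CPM + 0.5) over the 3 libraries of each group for the 200 transcripts and for the 16751 others, with lines from the 10th to the 90th percentile of the 200. The Wild type bar chose the transcripts, and in lines 9, 12 and 47 the median of the 200 was 0.74, 1.12 and 0.63 against 0.23, 0.20 and 0.17 for the others.

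The first principal component of the 9 RNAi libraries, the direction of largest variance among them, took 61.4% of the variance of the 200 transcripts. Its weights correlated with the Wild type difference across the 200 with r = 0.83, much of which was the contrast of low with high transcripts. Within the 165 low transcripts r was 0.46 and within the 35 high transcripts 0.37. Among the other 16751 transcripts the first component took 35.7% and r was 0.65. Without line 12 replicate 1 the component of the 200 took 45.5% of the variance with r = 0.60, and its ends were then line 9 replicate 1 and line 47 replicate 1. With every library centred on the mean of its line it took 70.3% with r = 0.77, which was 0.43 within the low transcripts. That component rested mainly on line 12. Without line 12 replicate 1, a centring added after the data were seen, it took 56.0% with r = 0.46 (0.37 within the low and 0.16 within the high transcripts), with line 9 replicates 1 and 3 at its ends, and r was 0.04 for the other 16751.

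Differences between the lines were tested without the Wild type libraries, which had chosen the transcripts. edgeR's quasi-likelihood F test over lines 9, 12 and 47 called 1 of the 200 at a Benjamini-Hochberg adjusted p under 0.05, where 0.0371% of the 37723 transcripts tested were called. At an unadjusted p under 0.05 it passed 41 of the 200, against 12.6% of all. DESeq2 called 17 of the 199 to which it gave an adjusted p, against 2.45% of all, and limma-voom called 1. The median share of variance that lay between lines was 28.8% for the 200 and 33.4% for the other transcripts. The joint call was lost with the lane tag as a covariate and without the lane tag 6 libraries of line 47. Among the RNAi libraries the tag varied only within line 47, so both fits left the level of that line to replicate 1. They cannot tell the tag from the loss of replicates. At an unadjusted p under 0.05, 52 of the 200 passed with the covariate, against 9.65% of all, and 41 without those libraries, against 7.87% of all. No other tool was run on these fits.

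The called transcript was PGSC0003DMT400037077, a high transcript. It was at 1.33, 1.28 and 13.1 CPM in Wild type replicates 1, 2 and 3. It was at 14.3, 14.3 and 11.1 CPM in line 9 and at 13.5, 13.6 and 11.4 CPM in line 12. In line 47 it was at 2.15, 1.63 and 1.33 CPM. The 12 libraries fell into a low set of 5, Wild type replicates 1 and 2 and all of line 47, and a high set of 7, with no library between 2.15 and 11.1 CPM. Wild type replicate 3 alone carried the transcript over the minimum level, and the split within the Wild type was used in the choice. Nothing is read from the place of the Wild type libraries in these sets. Line 47 was lower than line 12 by a log2 change of -2.94 (SE 0.22) and lower than line 9 by -2.96 (SE 0.22), while line 9 and line 12 differed by 0.02 (SE 0.19). The adjusted p of the joint test was 0.00111 in edgeR. With the lane tag as a covariate the adjusted p was 0.118 and without the lane tag 6 libraries of line 47 it was 0.243, with log2 changes of -2.57 in both. Line 47 replicate 1, which carried lane tag 7 like lines 9 and 12, was at 2.15 CPM. With line 47 resting on that library in both fits, the part of the lane tag in this difference was not tested.

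By pairs of lines, edgeR called 0 of the 200 between lines 9 and 12, where 0.0371% of all were called. In that pair 38 passed at an unadjusted p under 0.05, against 10.3% of all, DESeq2 called 7 (0.967% of all) and limma-voom 0. Between lines 47 and 12 it called 1 (0.0239% of all) and between lines 47 and 9 it called 1 (0.0345% of all), in each case PGSC0003DMT400037077. DESeq2 called 7 of the 200 between lines 47 and 12 (0.735% of all) and 9 between lines 47 and 9 (2.36% of all). At an unadjusted p under 0.05 in edgeR, 49 of the 200 passed between lines 47 and 12, against 8.65% of all. Between lines 47 and 9 it was 21 of the 200 (10.5%), below the 13.7% of all. The median log2 change of the 200 was 0.45 for line 9 minus line 12, 0.55 for line 47 minus line 12 and 0.21 for line 47 minus line 9, against 0.00, -0.01 and -0.01 over all transcripts tested. These 3 comparisons share libraries, and the first pair of values rests on line 12, whose replicate 1 held the low transcripts at their lowest. Of the 35 high transcripts, 5 were higher in all 3 line 9 libraries than in all 6 of lines 12 and 47, against 3.04% of the 8419 other transcripts that were higher in Wild type replicate 3. Of the 165 low transcripts, 1 was lower in all 3 line 9 libraries than in those 6, against 5.08% of the 8332 others.

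For the 9 RNAi libraries against the 3 Wild type libraries, edgeR called 0 of the 200, where 0.0391% of the 38364 transcripts tested were called. At an unadjusted p under 0.05 it passed 11, against 6.73% of all, and DESeq2 (0.272% of all called) and limma-voom called 0 of the 200 each. The large Wild type spread that chose these transcripts enters the error of this test, so nothing is read from the count. The median log2 change was -0.31 for the 200 and 0.01 for all. The Wild type levels used in the choice enter this change too, so nothing is read from its sign or size.

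Transcripts with a name in the study's tables were followed beside the 200, although none of them was among these. Of the 33 listed transcripts at the minimum level none reached the SD of the last of the 200, and the highest, annotated as Nb cell death marker, had an SD of 0.717. Over the 9 RNAi libraries the correlation of a transcript's level with the library's position had a median of r = -0.85 among the low transcripts and 0.43 among the high transcripts. Among the others it was -0.40 for those lower and 0.38 for those higher in Wild type replicate 3. The position is built from the 200 themselves, so their own values are a description. Over the 36 annotated transcripts r ran from -0.94 to 0.79. The lowest was that of a phospho-2-dehydro-3-deoxyheptonate aldolase, PGSC0003DMT400079161, the first enzyme of the shikimate pathway that feeds phenylpropanoid synthesis, chosen after its values were seen. The phenylalanine ammonia-lyases, which open phenylpropanoid synthesis, had r of 0.61 and -0.34 and the peroxidase -0.39, so the annotated enzymes around this pathway did not share a direction. The aldolase stood at 3536, 4287 and 1983 CPM in Wild type replicates 1, 2 and 3 and at 1958, 3379 and 3165 CPM in line 12, so Wild type replicate 3 and line 12 replicate 1 were its lowest 2 libraries. It was at 2758, 2516 and 3236 CPM in line 9 and at 4146, 3498 and 3442 CPM in line 47.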

How the data were processed

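Illumina reads from periderm RNA were quality checked by the authors with FastQC 0.11.2 and aligned by Bowtie 2 against Group Phureja transcripts. The deposited values are the effective counts of eXpress 1.5.1, estimated counts per transcript that are not normalized between libraries. The labels gave the genotype, line and replicate of each sample. Total effective counts per library were 18650236 to 21585122, and limits based on them cover counting error only. The files hold 1 value column each, so no other column was left unused. The study's supplementary tables also hold the authors' own comparisons, fold changes and probabilities among them, and these were not used. The tables served only for annotations and for the transcripts left out of the choice.

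The transcripts and tests were chosen with earlier results of these data known. CPM were computed over library totals with a pseudocount of 0.5 in Python 3.11.15 (numpy 2.4.6, pandas 2.3.3, matplotlib 3.10.9). The position of a library is a mean over the 200 transcripts and was given no test. The tests used effective counts as the nearest whole number and left out transcripts whose counts in a fit summed to less than 10. They were quasi-likelihood F tests of edgeR 4.0.16 in R 4.3.3 with TMM normalization, adjusted by Benjamini-Hochberg over everything tested, at a threshold of 0.05. The joint test and the 3 pairs of lines used the 9 RNAi libraries, and RNAi against Wild type used all 12. No term of the fits tied together libraries from 1 transformation event. Alternatives were DESeq2 1.42.0, limma 3.58.1 (voom), other normalizations and count filters, a replicate block, a lane tag covariate, the 6 RNAi libraries that the study compared, other rules for choosing the transcripts, and each library left out in turn. Missing adjusted p-values of DESeq2 stayed missing. The fits and the position were tested on simulated data. The simulated libraries had set positions, so the simulation does not show where a library unrelated to the scale would fall.

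Transcripts were named by rule, at most 2 of each side with the largest Wild type SD and at most 2 of each side with the smallest p among those called in the joint test, because no identifier was paired with a name. The table of RefSeq potato genes used here matched 0 of the identifiers.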

Additional observations from a re-analysis of the deposited data

Results flagged for a closer look

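PGSC0003DMT400037077 differed among the RNAi lines by a test of that difference, the joint edgeR quasi-likelihood test over the 9 RNAi libraries, with an adjusted p of 0.00111 (Benjamini-Hochberg). It was at 13.2 ± 1.82 CPM in line 9 (SD, n = 3), at 12.8 ± 1.21 CPM in line 12 (SD, n = 3) and at 1.71 ± 0.414 CPM in line 47 (SD, n = 3). In the Wild type, replicates 1 and 2 were at the level of line 47 and replicate 3 at that of lines 9 and 12. Those Wild type levels were used in the choice, so this likeness is a description. Groups of 3 libraries are too small for a check of single libraries that stand apart.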

How the results depend on the processing

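The order of the libraries on the Wild type scale depended little on the processing. Over 9 alternatives line 12 replicate 1 lay between 102.1% and 118.8% and line 47 replicate 1 between 2.63% and 7.20%, and no other RNAi library left the range from 26.5% to 57.7%. Counts of calls moved more. The lane tag covariate and the fit without the lane tag 6 libraries both left line 47 to its replicate 1. Their counts therefore do not test the tag. In the joint test among lines, DESeq2 called 17 of the 200 transcripts, and 0 were called with the lane tag as a covariate, without the lane tag 6 libraries of line 47, with lines 9 and 12 only, or with the transcripts chosen at a minimum mean of 10 CPM, where the called transcript fails that minimum. DESeq2 called 7 between lines 9 and 12, 7 between lines 47 and 12 and 9 between lines 47 and 9. In both pairs with line 47, edgeR called 0 with the lane tag as a covariate, without its lane tag 6 libraries and at the minimum of 10 CPM. Over all transcripts the joint test called 14 in edgeR, 871 in DESeq2, 10 with the replicate block, 6 with the lane tag as a covariate, 3 without the lane tag 6 libraries of line 47 and 3 with lines 9 and 12 only. With 1 library at a time left out, edgeR called 1 to 2 of the 200 in the joint test (2 without line 9 replicate 1 and without line 9 replicate 3), 1 between lines 47 and 12, 1 to 2 between lines 47 and 9 (2 without line 47 replicate 2) and 0 between lines 9 and 12 and in RNAi against Wild type. RNAi against Wild type gave 0 of the 200 in edgeR under every alternative run, in DESeq2 and in limma-voom. Its edgeR count at an unadjusted p under 0.05 moved. It was 4 without Wild type replicate 1, against 4.35% of all, and 1 without replicate 2, against 3.53%. Without replicate 3 it was 67, against 12.8%, and with the lane tag as a covariate 0, against 3.48%. The Wild type libraries chose the transcripts, so nothing is read from these counts. Without each library in turn, the median SD over the remaining pair ranged from 0.47 to 0.82 in line 9, from 0.20 to 1.37 in line 12 and from 0.34 to 0.72 in line 47. The correlation of the first RNAi component with the Wild type difference ranged from 0.60 without line 12 replicate 1 (0.74 without line 47 replicate 1) to 0.84, and from 0.81 to 0.84 under the other settings, which were chosen after seeing the data. With libraries centred on their line it was 0.77, and 0.46 without line 12 replicate 1. The log2 change of line 47 minus line 12, not called, ranged with each library left out from -2.60 to 0.25 for PGSC0003DMT400097503 and from -2.54 to 0.27 for PGSC0003DMT400093189, and turned above 0 without line 12 replicate 1. The cause of these changes was not tested. Over 18 pairs of libraries with the same replicate number, the deviations from the group means correlated between -0.63 and 0.63, and 5 were over 0.1. The correlations had no common sign. These pairs share libraries, so the values cannot decide whether the numbers pair them. With the replicate block, 1 of the 200 was called in the joint test, as without it.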
